A study of Danio rerio with 17 samples.

Results

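Among the 15648 genes measured in the zebrafish midbrain are 4 central genes of selenium transport and selenocysteine synthesis: selenop, LRP8, SEPHS2 and SEPSECS. They were chosen by name from the genes with these roles, with earlier results of these data known. Each had 1 gene row in the deposited table. The row of selenop is ENSDARG00000093549, that of LRP8 is ENSDARG00000070074, that of SEPHS2 is ENSDARG00000017659 and that of SEPSECS is ENSDARG00000033861. SEPHS2 and SEPSECS were lower in the Transgenic Mosaic 1 population than in the Pargana population, by 0.29 and 0.48 on the log2 scale, and selenop and LRP8 did not pass the test. No diet difference of the 4 genes passed it. Both population calls were lost in some fits that took markers of other tissues into account and kept in others. Over these fits the differences ranged from -0.35 to -0.21 for SEPHS2 and from -0.77 to -0.44 for SEPSECS.

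Selenium enters selenoproteins as selenocysteine, which is built on its own transfer RNA and inserted at a UGA codon. SELENOP, a secreted protein with many selenocysteines, carries selenium between tissues, and in mice the receptor LRP8 (ApoER2) takes it up in brain. Inside the cell SEPHS2 makes selenophosphate, and SEPSECS uses it to turn phosphoseryl-transfer RNA into selenocysteyl-transfer RNA. SEPHS2 is a selenoprotein itself. In mammals the brain holds on to selenium when the supply is low.

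Each of 17 single-colour NimbleGen arrays measured the midbrain of 1 male zebrafish, 1 year old and sexually mature. The fish came from 2 populations, Pargana (8 fish) and Transgenic Mosaic 1 (9 fish), and ate 1 of 3 diets for 10 weeks, with selenomethionine as the source of selenium: 0.46 ppm in the deficient feed, 1.7 ppm in the control feed and 3.1 ppm in the supplemented feed. Every group had 3 fish except Pargana control, which had 2. The labels name no transgene and no allele for either population. All values are log2 expression per gene, so a difference of 1 is a doubling, and signed population differences are Transgenic Mosaic 1 minus Pargana. Levels of different genes are not compared with each other, because they come from different probes. Array medians lay between 9.62 and 9.73, and with 2 or 3 fish a group the precision of each comparison is limited.

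Midbrain and tectum markers were present: PAX7 averaged 13.28, GATA3 12.94, TFAP2A 12.54 and OTX2 12.25 over all arrays. Of the 9 genes of that list 3 passed for the population difference, EN1 at -0.87 (limma adjusted p = 0.0047), otx2a at 0.47 (adjusted p = 0.0246) and meis2b at 0.38 (adjusted p = 0.0213), and its median difference was 0.04. All 9 hindbrain and spinal cord markers stayed below 6 in every array, where the lowest value of the whole table was 3.48. Means of the 9 forebrain markers ran from 5.19 (emx3) to 12.58 (DLX1), with EMX2 at 11.77 and DLX2 at 10.54. Markers of tissues next to the brain varied between arrays. A marker score is how far a fish lies, on average over the genes of a list, from each gene's mean in the 17 fish. The skeletal muscle score ran from -0.22 to 1.57 in Pargana fish and from -0.77 to -0.05 in Transgenic Mosaic 1 fish, and 6 of 15 muscle markers were lower in Transgenic Mosaic 1. The pituitary score ran from -0.39 to 1.96 against -0.63 to -0.18, with 3 of 11 markers lower. Scores for eye and pineal (-0.51 to 1.3 against -0.41 to 1.08) and for microglia (-0.53 to 1.04 against -0.27 to 0.35) overlapped more widely. The erythrocyte score ran from -0.32 to 1.14 against -0.64 to 0.11, with 0 of 4 markers past the threshold (smallest limma adjusted p 0.0567, 2 of 4 at an unadjusted p under 0.05). That of choroid plexus and ependyma ran from -0.07 to 0.39 against -0.17 to 0.05, with 1 of 5 lower. The forebrain score ran from -0.63 to 0.15 against -0.59 to 0.97, with 0 of 9 markers past the threshold. Only the muscle, pituitary, eye and microglia lists were used as covariates. Among the lists not used, oligodendrocytes had 2 of 8 markers (25%) past the threshold, and endothelium and pericytes 2 of 8 (25%). Neurons had 0 of 10 and radial glia 0 of 8. Over all genes 13.3% passed for the population difference, 6.95% of all genes being lower in Transgenic Mosaic 1. A score above 0.9 in muscle, pituitary, eye or microglia occurred in 5 arrays: both Pargana control fish, Pargana supplemented fish 1 and 3, and Transgenic Mosaic 1 deficient fish 2. In bulk tissue, fewer cells of a type and less RNA per cell cannot be told apart.

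**Figure D1:**
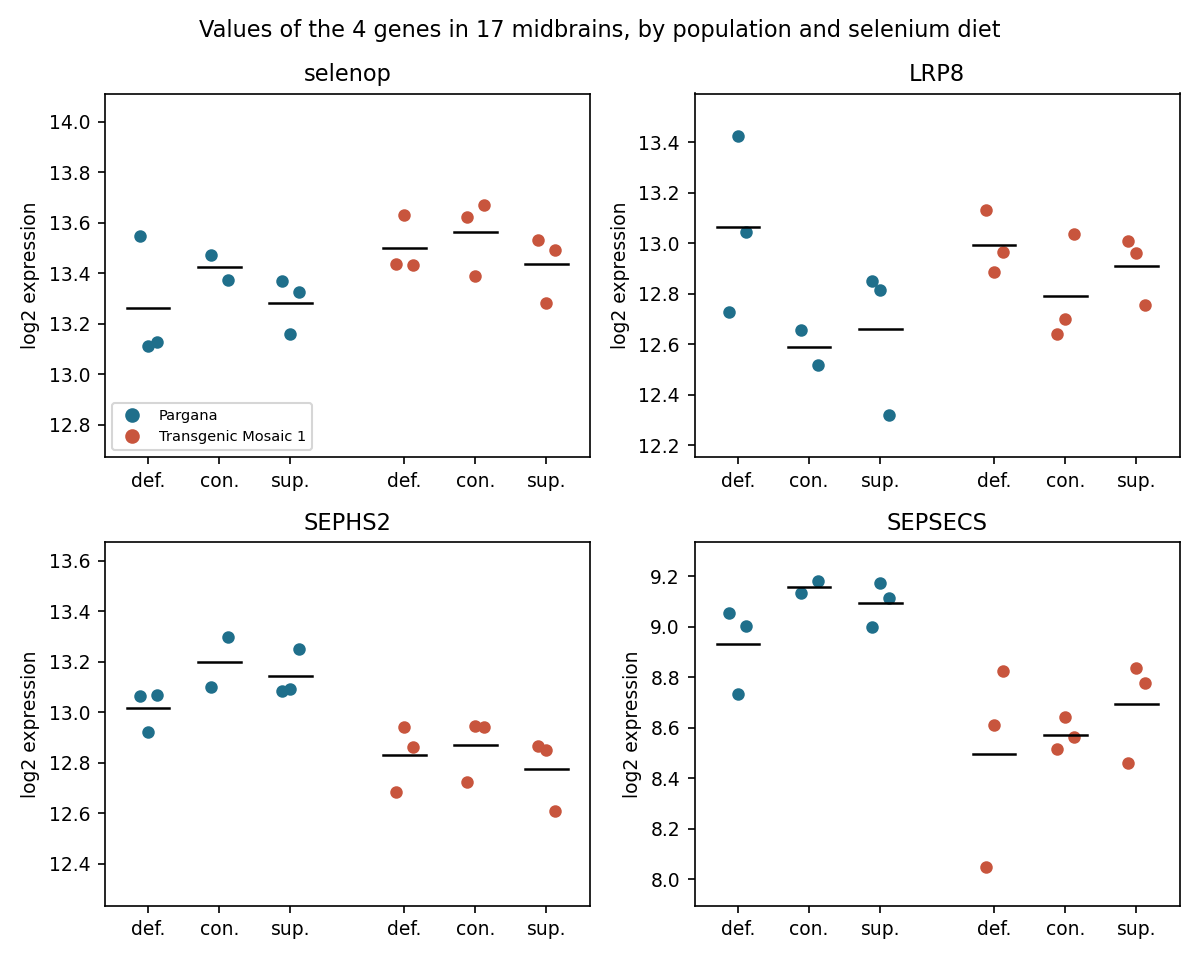
Log2 expression (y axes, all of the same height) of selenop, LRP8, SEPHS2 and SEPSECS in each of 17 fish (points) by population and diet (def., deficient; con., control; sup., supplemented), with the group mean as a line. SEPHS2 and SEPSECS of the Transgenic Mosaic 1 fish lie lower, with 7 of 8 Pargana fish above the highest of them. The share of all genes with such a split was not counted. For selenop and LRP8 the populations overlap broadly.

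The RNA of selenop, the gene of the transport protein, read between 13.11 and 13.67 over all fish. In Pargana fish it read 13.47 and 13.37 on the control diet, 13.55, 13.11 and 13.13 on the deficient diet, and 13.37, 13.16 and 13.33 on the supplemented diet. In Transgenic Mosaic 1 fish it read 13.62, 13.39 and 13.67 on the control diet, 13.44, 13.63 and 13.43 on the deficient diet, and 13.53, 13.28 and 13.49 on the supplemented diet. The populations overlapped, although 8 of 9 Transgenic Mosaic 1 fish lay above the Pargana mean of 13.31 ± 0.16 (SD, n = 8). The difference averaged over diets was 0.18 (SE 0.081, 95% interval 0.0019 to 0.35). Its unadjusted limma p was 0.0479, and 29% of all genes had an unadjusted p under the same limit of 0.05. After Benjamini-Hochberg adjustment over all genes it did not pass (adjusted p = 0.168). Group means ran from 13.56 ± 0.15 (SD, n = 3) in Transgenic Mosaic 1 control fish down to 13.26 ± 0.25 (SD, n = 3) in Pargana deficient fish. The 3 Transgenic Mosaic 1 groups ranked above the 3 Pargana groups, and of the 5 steps between neighbours in that order only Pargana control over Pargana supplemented had no overlapping fish. How many of all genes show such a step was not counted. The liver is the main source of SELENOP in the plasma of mammals. Of 15 liver markers 7, including the fibrinogen genes fga, FGB and FGG, stayed below 6 in every array. Others were higher: ceruloplasmin (CP) averaged 13.72, tfa 9.07 with up to 12.46 in an array, fabp10a 7.39 and apoa1a 7.06, serpina1l lay between 7.58 and 8.45, and c3a.1 reached 10.88 and ambp 8.21. The liver score ran from -0.19 to 0.47 in Pargana and from -0.27 to 0.10 in Transgenic Mosaic 1 fish, with tfa lower and apoa1a higher in the latter past the threshold. Its part in the selenop levels was not tested.

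LRP8, the receptor that takes up SELENOP and also passes on the reelin signal in neurons, varied the most among Pargana fish. Those on the control diet read 12.66 and 12.52, those on the deficient diet 12.73, 13.43 and 13.04, and those on the supplemented diet 12.85, 12.81 and 12.32. Transgenic Mosaic 1 fish read 12.64, 12.70 and 13.03 on the control diet, 13.13, 12.88 and 12.96 on the deficient diet, and 13.01, 12.96 and 12.76 on the supplemented diet. Pargana deficient fish 2 had the highest value of all and Pargana supplemented fish 3 the lowest, so the Pargana range of 1.11 enclosed the Transgenic Mosaic 1 range of 0.49. The population difference was 0.13 (SE 0.11, 95% interval -0.11 to 0.37, limma adjusted p = 0.489). Both deficient groups had the highest means, 13.07 ± 0.35 (SD, n = 3) in Pargana and 12.99 ± 0.13 (SD, n = 3) in Transgenic Mosaic 1. Pargana control fish had the lowest, 12.59 ± 0.097 (SD, n = 2). All neighbours in the order of the 6 means had overlapping fish.

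SEPHS2, which makes the selenium donor selenophosphate, was lower in Transgenic Mosaic 1 fish. Pargana fish read 13.10 and 13.30 on the control diet, 13.07, 12.92 and 13.07 on the deficient diet, and 13.08, 13.09 and 13.25 on the supplemented diet. Transgenic Mosaic 1 fish read 12.72, 12.95 and 12.94 on the control diet, 12.69, 12.94 and 12.86 on the deficient diet, and 12.87, 12.85 and 12.61 on the supplemented diet. All 9 Transgenic Mosaic 1 fish lay below the Pargana mean, and only Pargana deficient fish 2 came within their range. The difference averaged over diets was -0.29 (SE 0.070, 95% interval -0.44 to -0.14, limma adjusted p = 0.0144), a level 1.23-fold lower. It was -0.33 on the control, -0.19 on the deficient (-0.12 without Transgenic Mosaic 1 deficient fish 1) and -0.37 on the supplemented diet. None of these passed alone, the smallest adjusted p being 0.0982 on the supplemented diet. With the muscle, pituitary, eye and microglia scores as covariates the control diet gave -0.20. Within groups SEPHS2 was the steadiest of the 4 genes: its pooled SD was 0.121, against 0.230 for the median gene, and only 8.73% of genes had a smaller one.

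SEPSECS, the enzyme of the last step of selenocysteine synthesis, showed the larger population difference. Pargana fish read 9.13 and 9.18 on the control diet, 9.06, 8.74 and 9.00 on the deficient diet, and 9.00, 9.17 and 9.12 on the supplemented diet. Transgenic Mosaic 1 fish read 8.51, 8.64 and 8.56 on the control diet, 8.05, 8.61 and 8.82 on the deficient diet, and 8.46, 8.84 and 8.78 on the supplemented diet. As for SEPHS2, all 9 Transgenic Mosaic 1 fish lay below the Pargana mean and 7 of 8 Pargana fish above the highest of them. Pargana deficient fish 2 was again the exception. The share of all genes split this far was not counted for either gene. The difference of SEPSECS was -0.48 (SE 0.10, 95% interval -0.70 to -0.25, limma adjusted p = 0.00839), a level 1.39-fold lower. By diet it was -0.59 on control, -0.44 on deficient and -0.40 on supplemented feed, and none of the 3 passed alone (adjusted p 0.203, 0.248 and 0.206). The lowest fish was Transgenic Mosaic 1 deficient fish 1, whose group had the widest spread of the 6 (8.49 ± 0.40, SD, n = 3). Without it the difference on the deficient diet was -0.21. With the same 4 scores as covariates it was -0.71 on the deficient and -0.85 on the supplemented diet, neither past the threshold.

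Thus 2 of the 4 genes passed for the population difference, where 13.3% of all genes did, 6.4% as higher and 6.95% as lower. The 4 genes were chosen with earlier results of these data known, so this count is a description. Within single diets 0 of 4 passed, against 0.952% of genes on the control, 1.44% on the deficient and 3.87% on the supplemented diet. At an unadjusted p under 0.05 SEPSECS counted on all 3 diets and SEPHS2 on the control and supplemented diets, so that 2, 1 and 2 of the 4 genes did, against 12.4%, 14.3% and 20% of all genes. Over all genes the median population difference was -0.01.

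**Figure D2:**
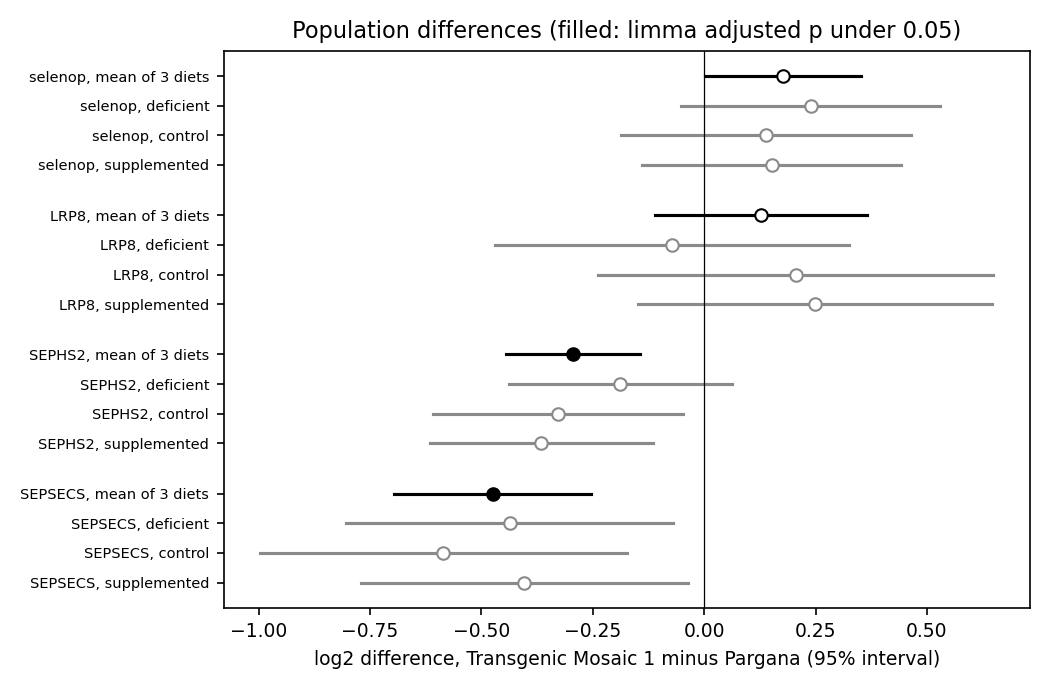
Log2 difference between Transgenic Mosaic 1 and Pargana (x axis) with its 95% interval for each of the 4 genes, averaged over 3 diets (black) and on each diet (grey), with filled points where the limma adjusted p is under 0.05. Only the averaged differences of SEPHS2 (-0.29) and SEPSECS (-0.48) are filled, and both genes lie below 0 on every diet.

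**Figure D3:**
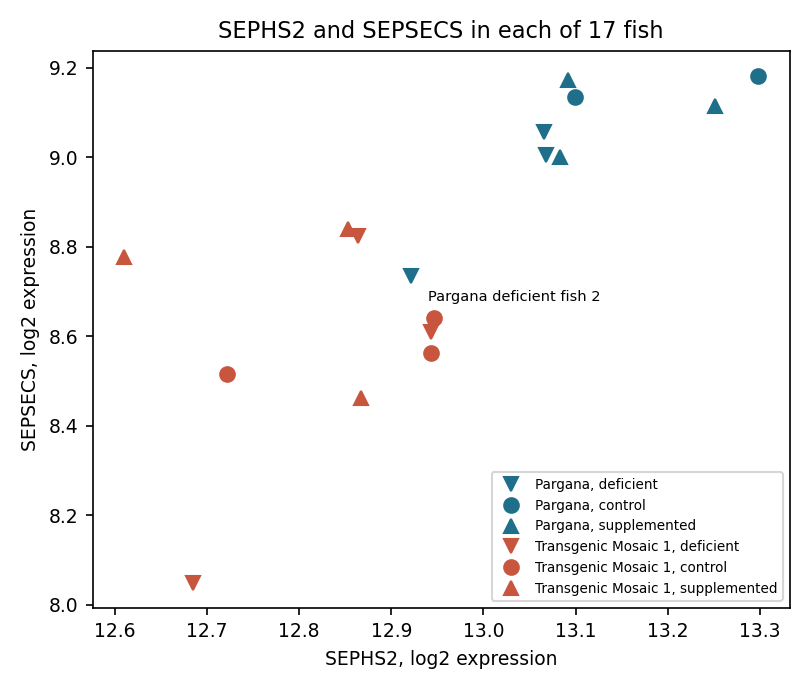
Log2 expression of SEPHS2 (x axis) and SEPSECS (y axis) in each of 17 fish, coloured by population with the diet as the symbol. The Pargana fish sit at the upper right and the Transgenic Mosaic 1 fish at the lower left, and Pargana deficient fish 2 lies among the latter.

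The calls of SEPHS2 and SEPSECS moved with the markers of other tissues. With the muscle, pituitary, eye and microglia scores as covariates the difference was -0.24 (SE 0.16, adjusted p = 0.617) for SEPHS2 and -0.77 (SE 0.22, adjusted p = 0.169) for SEPSECS, and the limma fit called 84 genes in all in place of 2089. Without the 5 arrays of high score no Pargana control fish remained, so population plus diet was fitted without interaction. The differences were then -0.27 (limma adjusted p = 0.165) and -0.49 (adjusted p = 0.113), with 779 genes called. They lie close to those with all arrays, but the control diet no longer enters the comparison of populations. With the pituitary score alone they were -0.21 (adjusted p = 0.185) and -0.44 (adjusted p = 0.0833). With the muscle score alone SEPHS2 was lost (-0.35, adjusted p = 0.160) and SEPSECS was kept (-0.73, adjusted p = 0.0331). With the eye score alone or the microglia score alone both genes kept their calls. Both genes kept their sign in all of these, and beyond these values the part of other tissue in their calls was not tested. When each array was left out in turn, SEPSECS passed in all 17 fits. SEPHS2 passed in 16 and lost its call without Pargana control fish 2 (-0.26, adjusted p = 0.0503).

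Pargana deficient fish 2 had the highest LRP8 (13.43) and the lowest SEPHS2 (12.92) and SEPSECS (8.74) of the 8 Pargana fish. Its selenop (13.11) was also the lowest, but close to the 13.13 of deficient fish 3. Its muscle score was 0.69 and its eye score 0.69, and limma's array weights gave it the lowest weight of all arrays (0.518). Without it the populations did not overlap for SEPHS2 or SEPSECS, which was true of 2.52% of all genes, and of 1.3% with Transgenic Mosaic 1 lower. With all fish 1.94% of genes did not overlap, 0.952% with Transgenic Mosaic 1 lower, and none of the 4 was among them. Pargana deficient fish 2 was singled out after its values were seen.

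Diet moved none of the 4 genes past the threshold. The 4 genes were tested in 6 comparisons of diets within populations and 3 averaged over both, and 0 of the 36 tests passed, with a smallest adjusted p of 0.674. An unadjusted limma p under 0.05 occurred in 3 of the 36, all for LRP8: deficient against control in Pargana (7.05% of all genes), supplemented against deficient in Pargana (6.51%) and deficient against control averaged over populations (6.94%). Few genes of the array passed either. In Pargana fish 0.0383% of genes passed for deficient against control, 0.032% for supplemented against control and 0 of 15648 genes for supplemented against deficient. In Transgenic Mosaic 1 fish the shares were 0.0256%, 0.0831% and 0.00639%. Averaged over populations they were 0.032%, 0.0447% and 0, and for the last 4.3% had an unadjusted p under 0.05. The comparisons with the control diet share control fish, and those in Pargana rest on 2 of them.

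LRP8 had the largest diet differences. In Pargana fish it was 0.48 higher on the deficient than on the control diet (SE 0.21, 95% interval 0.035 to 0.92, unadjusted limma p 0.0363, adjusted p = 0.674). All 3 deficient fish lay above both control fish, the nearest pair being 12.73 and 12.66. How many of all genes separate groups of 3 and 2 fish in this way was not counted. Without Pargana deficient fish 2 the difference was 0.30, and with the 4 marker scores as covariates it was 0.09. In Transgenic Mosaic 1 the same difference was 0.20 (95% interval -0.20 to 0.60), and fish of the groups overlapped. The average over populations was 0.34 (SE 0.14, 95% interval 0.042 to 0.64, unadjusted limma p 0.0281, adjusted p = 0.687), and 0.15 with the 4 scores. Supplemented Pargana fish were 0.41 below the deficient ones in LRP8, a difference of -0.41 (95% interval -0.80 to -0.0091, adjusted p = 0.764). It was -0.23 without Pargana deficient fish 2 and -0.24 without Pargana supplemented fish 3. Against the control diet supplemented fish differed by 0.07 in Pargana and 0.12 in Transgenic Mosaic 1.

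For selenop the deficient diet differed from control by -0.16 in Pargana (95% interval -0.49 to 0.16) and -0.06 in Transgenic Mosaic 1 (95% interval -0.35 to 0.23). The supplemented diet differed by -0.14 (95% interval -0.46 to 0.19) and -0.13 (95% interval -0.42 to 0.16). Control fish thus had the highest mean in both populations. In Pargana the control and supplemented fish did not overlap, although the nearest of each read 13.37. The share of all genes with such a split was not counted. In the other comparisons with the control diet, fish of each population overlapped with its control fish.

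For SEPHS2 the deficient diet differed from control by -0.18 in Pargana (95% interval -0.46 to 0.10) and -0.04 in Transgenic Mosaic 1 (95% interval -0.29 to 0.21). The supplemented diet differed by -0.06 and -0.09. Pargana supplemented and deficient fish did not overlap in SEPHS2, the nearest reading 13.08 and 13.07. How common such a split is among all genes was not counted. For SEPSECS the deficient diet differed from control by -0.23 (95% interval -0.64 to 0.18) and -0.08 (95% interval -0.45 to 0.29), and the supplemented diet by -0.06 and 0.12. These intervals leave room for changes of either sign, so the absence of a call does not show that the diets left the genes alike.

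Whether the response to diet differed between the populations was asked with limma's moderated F test of the interaction. It passed for 0 of the 4 genes and for 0.0383% of all genes (unadjusted p under 0.05: 0 of 4 and 5.63%), and the smallest adjusted p of the 4 was 0.989, for LRP8. The deficient-minus-control difference of LRP8 was 0.28 smaller in Transgenic Mosaic 1, an interaction term of -0.28 (SE 0.28). The corresponding terms were 0.10 (SE 0.20) for selenop, 0.14 (SE 0.18) for SEPHS2 and 0.15 (SE 0.26) for SEPSECS.

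**Figure D4:**
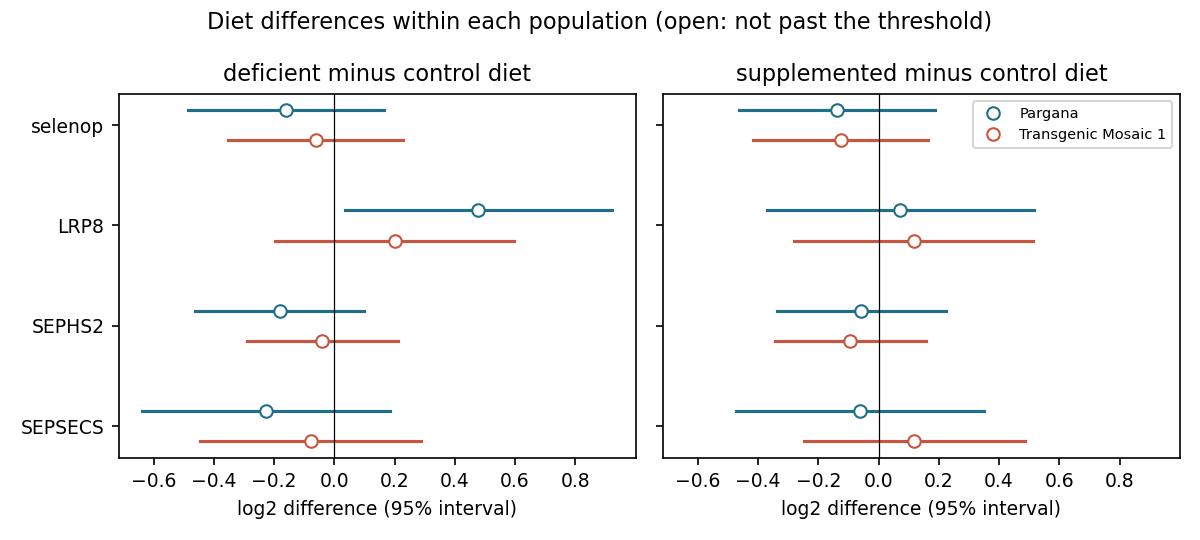
Log2 difference from the control diet (x axes) with its 95% interval for the deficient (left) and supplemented diet (right) in each population, for the 4 genes. All points are open, since none passed the threshold, and the LRP8 difference of deficient Pargana fish (0.48) is the only one whose interval excludes 0.

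The other measured genes of selenocysteine synthesis and decoding did not share the population difference of SEPHS2 and SEPSECS past the test. The listed genes pstk, secisbp2l, trnau1ap and scly matched no gene row by name, so nothing is said about them. Of 8 measured genes for selenocysteine synthesis and decoding, 0 were higher and 2, SEPHS2 and SEPSECS, were lower in Transgenic Mosaic 1. That is 25% of the list, beside the 13.3% of all genes, and the median difference was -0.06. Both called genes are members chosen with earlier results of these data known, so this share is a description. SEPHS1, a paralog of SEPHS2 that in mammals does not make selenophosphate, differed the other way by 0.28 (SE 0.10, limma adjusted p = 0.0809). It ran from 9.81 to 10.37 in Pargana fish, with a median of 10.14, and from 10.15 to 10.64 in Transgenic Mosaic 1 fish, with a median of 10.46. The SECIS-binding protein gene secisbp2, whose product marks selenoprotein messengers for decoding, differed by 0.18 (adjusted p = 0.495), and EEFSEC, the elongation factor that brings selenocysteyl-transfer RNA to the ribosome, by -0.00 (SE 0.092). SARS1, which loads the transfer RNA with serine, differed by -0.08, RPL30, a ribosomal protein that binds the SECIS element in mammals, by -0.08, and elavl1a, of the HuR family of RNA-binding proteins, by -0.03. None of the 8 genes passed in any diet comparison. SARS1 had a deficient-minus-control difference of -0.30 averaged over populations (SE 0.11, adjusted p = 0.666). Its mean was also lower on the supplemented than on the control diet in both populations. In Pargana it read 12.26, 12.26 and 12.53 against 12.53 and 12.62. In Transgenic Mosaic 1 it read 12.04, 12.42 and 12.28 against 12.60, 12.78 and 12.28.

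Among 5 measured carriers and uptake receptors, 0 were higher and 1 was lower in Transgenic Mosaic 1. That is 20% of the list, beside the 13.3% of all genes, and the median difference was 0.11. The lower gene was VLDLR, the other receptor of reelin and the closest relative of LRP8. It ran from 13.29 to 13.72 in Pargana fish (median 13.53) and from 13.06 to 13.52 in Transgenic Mosaic 1 fish (median 13.25). The populations thus overlapped, and the difference was -0.26 (SE 0.068, 95% interval -0.41 to -0.12, limma adjusted p = 0.0206). It passed on the supplemented diet as well, at -0.44 (adjusted p = 0.0461), where 3.87% of all genes passed. On the control diet it differed by -0.17 and on the deficient diet by -0.19. The call on the supplemented diet was not checked in the other fits. For the difference averaged over diets VLDLR kept its call in all 17 fits that left out an array. It lost it with the muscle score (adjusted p = 0.0589), with the pituitary score (adjusted p = 0.179), with all 4 scores (adjusted p = 0.425) and without the 5 arrays (-0.37, adjusted p = 0.0698). The megalin gene lrp2b, which in mammals takes up SELENOP in the kidney, stayed between 4.42 and 5.12, near the lowest values of the table, and differed by -0.01. The listed genes selenop2, lrp2a and those of lrp1 matched no gene row by name, so nothing is said about them. SELENBP1, a protein that binds selenium without selenocysteine, differed by 0.11.

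**Figure D5:**
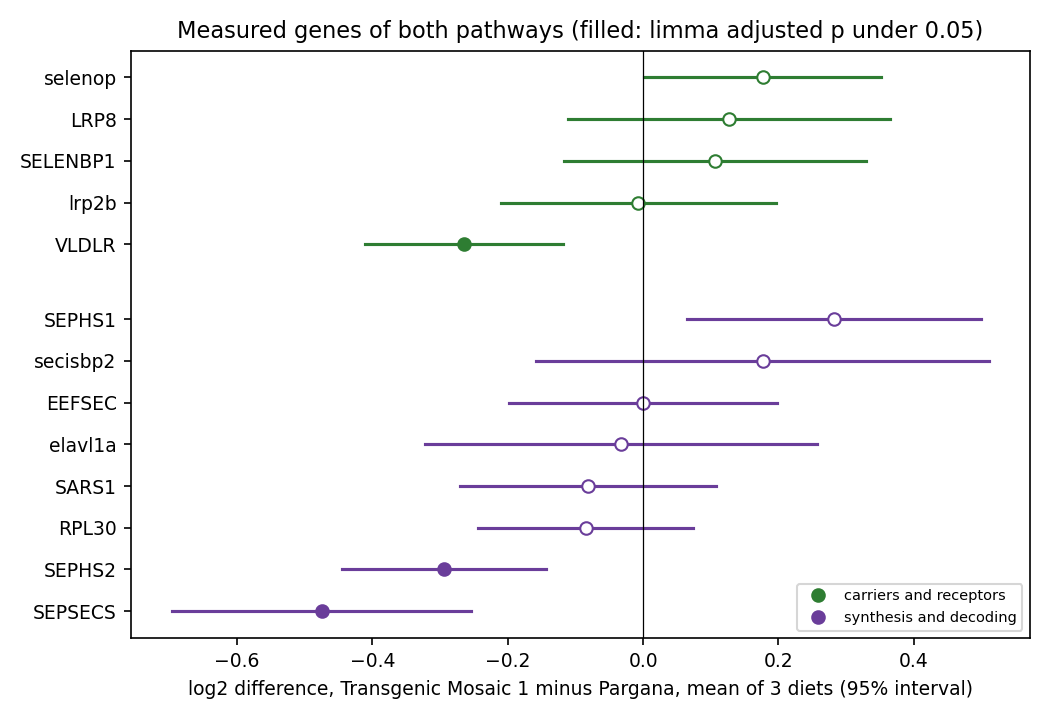
Log2 population difference averaged over 3 diets (x axis) with its 95% interval for the 5 measured carriers and receptors (green) and 8 genes of selenocysteine synthesis and decoding (purple), filled where the limma adjusted p is under 0.05. SEPSECS, SEPHS2 and VLDLR are filled and lie below 0, and SEPHS1 (0.28) lies farthest on the other side.

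In wider lists around the 4 genes the shares called for the population difference ran from 8.33% to 18.8%, beside the 13.3% of all genes. Of 12 genes of reelin signalling and 11 of the low density lipoprotein receptor family, VLDLR was the single gene past the threshold in each, with list medians of 0.03 and -0.01. Of 17 selenoproteins 2 were higher in Transgenic Mosaic 1, selenow1 by 0.34 (adjusted p = 0.0168) and selenot1b by 0.28 (adjusted p = 0.0401), and 1, SEPHS2, was lower, with a median of 0.02. The products of selenow1 and selenot1b belong to the redox families named in mammals SELENOW and SELENOT. On the supplemented diet selenos, a selenoprotein of endoplasmic reticulum quality control, was 0.53 higher in Transgenic Mosaic 1 (adjusted p = 0.0341). Its average over diets was 0.02. On that diet 3.87% of all genes passed, and the call of selenos there was not checked in the other fits. Of 16 genes handling selenomethionine and sulfur amino acids 3 were higher and 0 lower, with a median of 0.06. They were CSAD (0.50, adjusted p = 0.0344) and ADO (0.23, adjusted p = 0.0258), both of taurine synthesis, and AHCYL1 (0.32, adjusted p = 0.0238), a relative of adenosylhomocysteinase that binds the inositol trisphosphate receptor.

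Over all these lists 62 genes were measured and 8 passed for the population difference, 12.9% beside the 13.3% of all genes. Of the 8, 0 passed with the 4 scores as covariates and 0 without the 5 arrays of high score, with the muscle score alone 1 and with the pituitary score alone 2. Leaving out each array in turn cost selenot1b its call in 12 of 17 fits, CSAD in 11, ADO in 4 and AHCYL1 in 1 (without Pargana control fish 1, adjusted p = 0.0733), and selenow1 in 0. In these 17 fits the differences stayed between 0.25 and 0.33 for selenot1b, 0.39 and 0.62 for CSAD, 0.19 and 0.28 for ADO and 0.26 and 0.37 for AHCYL1. A trended variance cost ADO its call (adjusted p = 0.0526) and array weights selenot1b (adjusted p = 0.0703). No gene of these lists passed in a diet comparison.

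Among the Pargana fish LRP8 ran opposite to both enzymes, but no relation between members passed. Pearson's r of LRP8 with SEPHS2 was -0.894 (rho -0.833, exact permutation p 0.00603 and 0.0154, two-sided, n = 8). The adjusted values over 12 relations were 0.0619 and 0.131. Without the 2 fish farthest from the median of LRP8, r was -0.731 (exact permutation p 0.129). With group means removed, r over all 8 fish was -0.817 (adjusted exact permutation p 0.180). For LRP8 with SEPSECS r was -0.851 (rho -0.738, exact permutation p 0.0103 and 0.0458, adjusted 0.0619 and 0.183, n = 8), and without 2 fish it was -0.730. Removal of group means gave -0.725 over all 8 fish (adjusted exact permutation p 0.239). For SEPHS2 with SEPSECS r was 0.784 (rho 0.810, exact permutation p 0.0209 and 0.0218, adjusted 0.0837 and 0.131, n = 8). Without the 2 fish farthest from the median r was 0.364. For deviations from the group means, r was 0.592 with all fish and 0.757 without 2. In the 9 Transgenic Mosaic 1 fish the same pairs gave r of 0.145, -0.409 and 0.246, and the smallest adjusted exact permutation p there was 0.569. Diet groups are mixed within each population, and the difference of r between populations was not tested.

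Correlations with each member over all 17 arrays take in differences between the populations and are a description. The 4 genes of highest positive r were sought among the 13251 genes with a symbol. For selenop they were lama4 (r 0.843), a laminin chain of vascular basement membranes, ITM2B (0.840), chmp4bb (0.803) and rhebl1 (0.784). For LRP8 they were BORCS7 (0.912), TMEM126A (0.890), RIMOC1 (0.885) and TRIP11 (0.882). For SEPHS2 they were DDX21 (0.893), an RNA helicase of the nucleolus, si:dkey-87o1.2 (0.881), oclna (0.879) and AVIL (0.877). For SEPSECS they were mark4a (0.899), SEC22A (0.880), gabrz (0.877) and KRR1 (0.873), a factor of small ribosomal subunit assembly. When group means were removed, the correlations stayed between 0.841 and 0.897 for LRP8. They were 0.610 to 0.759 for selenop, 0.636 to 0.730 for SEPHS2 and 0.734 to 0.810 for SEPSECS.

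The 3 nearest measured genes on each side of every member, in the gene order of a RefSeq assembly, were looked up after the members' differences were known. Of these 24 neighbours 4 (16.7%) passed for the population difference, close to the 13.3% of all genes, so the count is not a result about the members. The 3 measured genes on one side of SEPSECS were among them and higher in Transgenic Mosaic 1: ACO1, cytosolic aconitase, by 0.61 (adjusted p = 0.0016), ppp1r15a by 0.26 (adjusted p = 0.0254) and TYMS, thymidylate synthase, by 2.65 (adjusted p = 4.5e-06). On its other side ADGRA3, PPARGC1A and DHX15 lay between -0.15 and 0.10 and did not pass. Beside LRP8 1 of 6 passed, cfap144 at -0.73 (adjusted p = 0.0018). Beside selenop 0 of 6 passed, the smallest limma adjusted p being 0.185. SEPHS2 was placed by a RefSeq gene named sephs3 with sephs2 as a synonym, whose identity with the measured gene was not checked. Of the 6 genes beside it 0 passed (smallest limma adjusted p 0.1).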

How the data were processed

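Expression was measured in 17 midbrains, 1 array per fish. The deposited log2 values per Ensembl gene were made by the authors with RMA and the Zv9 build, per the submitters' processing notes; no version is given in the sources used here. They were used as deposited. Of 15649 features 1 names no gene and was left out. Symbols came from Ensembl gene names without regard to case. RefSeq synonyms of GRCz12tu served as well, a rule settled after the annotation was seen, and 218 of 401 list entries matched, giving 202 genes. The RefSeq synonym of SEPHS2 leads to a gene it calls sephs3, an identity that was not checked.

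A mean for each of 6 groups was fitted with limma 3.58.1 (R 4.3.3) over all 17 arrays (residual degrees of freedom 11, prior 2.84). Tests were two-sided, with p-values adjusted by Benjamini-Hochberg over 15648 genes, with a threshold of 0.05. The spread within a group mixes differences between fish with technical ones. The labels give no slide or scan date. Pargana deficient fish 3 was grouped by its strain label, although the letter in its sample code differs. No pair of arrays of the same group shared more than 58 identical values.

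Named genes were the members, all measured genes of both core lists and genes of wider lists past the threshold. The 4 genes with a symbol of highest r with each member were named as well. Members and lists were chosen with earlier results of these data known. The alternatives were quantile normalization again, median centring, the genes of lowest mean (the 0.25 quantile) left out, trended and robust variances, array weights, no interaction, marker scores as covariates, no arrays of score above 0.9, and each array left out. Comparisons of a single pair of groups were also fitted on the arrays of that pair alone. Single scores as covariates were added after the data were seen. The fit without arrays of score above 0.9 also left out the interaction. Tests were checked on simulated data. Permutation tests went through all pairings with numpy 2.4.6, with ranks from scipy 1.17.1, and figures used matplotlib 3.10.9, under Python 3.11.15.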

Additional observations from a re-analysis of the deposited data

Results flagged for a closer look

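SELENBP1, a listed selenium-binding gene, differed in direction between the populations on 1 of 2 diets. On the deficient diet the Pargana fish lay 0.04, 0.02 and 0.08 below their control mean, and the Transgenic Mosaic 1 fish lay 0.13, 0.15 and 0.22 above theirs. The difference between these changes was 0.21 on the log2 scale. Every deficient fish of a population lay on the same side, which is why it is given here, although 6.58% of all genes show such a split. On the supplemented diet the fish lay on both sides of the control means, and limma's interaction test did not pass (adjusted p = 0.994). Groups of 2 or 3 fish were too small for a search for outlying fish.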

How the results depend on the processing

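All alternatives of the population difference kept the sign of SEPHS2 and SEPSECS. SEPHS2 did not pass with 4 marker scores (-0.24), the muscle score (-0.35) or the pituitary score (-0.21), nor without the 5 arrays of high score (-0.27), and leaving out each array gave -0.33 to -0.26. SEPSECS did not pass with 4 scores (-0.77), the pituitary score (-0.44) or without the 5 arrays (-0.49). Of the 4 genes 0 passed with 4 scores, 0 without the 5 arrays, 1 with the muscle score, 0 with the pituitary score and 1 to 2 when single arrays were left out. The 2089 genes called became 84 with 4 scores and 779 without the 5 arrays. The cause of these losses was not tested, and the latter fit also had fewer arrays and no interaction.

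Results that had not passed had 1368 refits, counting those of the interaction test, which has no sign. Differences among them turned sign in 34 refits, and 1 passed, SEPHS2 on the supplemented diet with array weights (-0.40, adjusted p = 0.0365). With 4 scores the turned differences were, for supplemented minus control in Pargana, 0.045 for selenop, -0.39 for LRP8, 0.046 for SEPHS2 and 0.25 for SEPSECS. Also with 4 scores they were 0.040 for selenop in deficient minus control Pargana fish, 0.0019 for SEPHS2 in supplemented minus deficient Transgenic Mosaic 1 fish, and for LRP8 -0.15 in supplemented minus control averaged, with population differences of -0.097 on the control and 0.020 on the deficient diet. The population difference of LRP8 was -0.036 with the pituitary score and, on the deficient diet, 0.034 with array weights. In selenop supplemented minus deficient Pargana fish gave -0.011 after quantile normalization, -0.024 after median centring and -0.039 with array weights. Centring moved all genes alike in that comparison, the median of all genes going from 0.036 to -0.0098, and to -0.0063 after quantile normalization. Deficient minus control Transgenic Mosaic 1 fish gave 0.016 for SEPHS2 after quantile normalization.

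Leaving out each array gave ranges across 0. For LRP8 they were -0.24 to 0.11 between populations on the deficient diet and -0.021 to 0.24 for supplemented minus control in Pargana. For SEPHS2 they were -0.16 to 0.042 for the latter, -0.11 to 0.033 for deficient minus control and -0.13 to 0.029 for supplemented minus deficient in Transgenic Mosaic 1, and -0.0016 to 0.076 for supplemented minus deficient averaged. For SEPSECS they were -0.24 to 0.14 and -0.025 to 0.36 for the same pair in Transgenic Mosaic 1, and -0.0080 to 0.086 for supplemented minus control averaged. For selenop supplemented minus deficient gave -0.052 to 0.16 in Pargana, -0.11 to 0.012 in Transgenic Mosaic 1 and -0.058 to 0.050 averaged.

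Without the 2 fish farthest from the median, r of selenop turned to -0.177 with SEPHS2 and -0.432 with SEPSECS in Pargana, and to -0.019 and 0.013 in Transgenic Mosaic 1. After removal of group means it turned to 0.040 with LRP8 and -0.054 with SEPHS2 in Transgenic Mosaic 1. Counts of genes called by diet moved by over 1.5 times in some fits: without single arrays from 3 to 198 for deficient minus control and 2 to 162 for supplemented minus control in Pargana, against 6 and 5 with all arrays. No paired analysis was possible because replicate numbers only name the fish.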
